A study of Mus musculus with 11 samples.

Results

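The microRNAs (miRNAs) miR-10 and miR-196 are encoded inside the Hox gene clusters. All rows for the miR-10a, miR-10b, miR-196a and miR-196b hairpins, of any gene copy and either arm, were taken from a table of 592 miRNAs, by name and without use of their values. These were 4 rows, miR-10a-5p, miR-10b-5p, miR-196a-5p and miR-196a-1-3p. RefSeq gives 9 mature arms for the 5 hairpins of these families, and the other arms, like both arms of miR-615 of the Hoxc cluster, were not analysed here.

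The table comes from small RNA sequencing of male C57BL/6 mouse embryonic stem (mES) cells. Trim71 is an RNA-binding protein of the TRIM-NHL family and a well known target of let-7 miRNAs. The study compared 5 libraries of Trim71-/- cells with 6 libraries of Trim71fl/fl cells, and its purpose was to find miRNAs whose abundance changes upon loss of Trim71. The Trim71fl/fl cells are homozygous for a floxed Trim71 allele, whose last exon can be deleted, and both genotypes carry an inducible Cre recombinase, CreERT2, from the Rosa26 locus. The Trim71-/- cells arose from Trim71fl/fl cells by deletion of this exon with 4-hydroxytamoxifen (4-OHT), given according to the labels at 500 nM for 2 days and followed by a culture of at least 7 days, and the study's Methods give a lower concentration and a shorter culture. The Methods name DMSO as the solvent control. Cells grew with serum and LIF, in a medium conditioned by embryonic fibroblasts according to the Methods, and were sorted for the stem cell surface antigen SSEA-1 before harvest. There were 2 clones, called 1 and E3, and a day number from 1 to 6 that joins 1 Trim71-/- and 1 Trim71fl/fl library of the same clone, without the labels saying what the days count. Days 1, 5 and 6 belong to clone 1, and days 3 and 4 to clone E3. Nothing in the labels says that the libraries came from separate cultures, so that p-values measure the spread between these libraries. The transcript of Trim71 itself is not a miRNA, and its deletion was not measured here.

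Some properties of the table bear on every value below. The values are read counts that the authors normalized, corrected for batch and raised to 1 where they were lower, and this 1 is called the floor. In 591 of 592 miRNAs the sum of the Trim71-/- and the Trim71fl/fl value of a day was the same on every day to within 0.1%, where neither was at the floor. For miR-10a-5p this sum was 583, for miR-10b-5p 366, for miR-196a-1-3p 1250 and for miR-196a-5p 425. A library high in a miRNA on one day therefore has a partner that is low by the same amount, and the 10 values of a miRNA reduce to 5 same-day differences and 1 common sum. The Trim71fl/fl library of day 2, which has no partner, equalled the mean of the other Trim71fl/fl libraries, taken before the floor, to within 0.1% in all 592 miRNAs and was left out. Summed values of the remaining libraries ran from 3751519 to 5551715 in Trim71-/- and from 2742673 to 4332525 in Trim71fl/fl, and day 5 held both the highest Trim71-/- and the lowest Trim71fl/fl sum. The number of sequenced reads is unknown.

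The Hox clusters hold the genes of the transcription factors that set position along the body axis, and these genes are largely silent in pluripotent cells. The miRNA genes miR-10 and miR-196 sit between and within the Hox genes, are active in the trunk of the embryo, and repress several Hox mRNAs. A miRNA acts as part of an Argonaute complex and finds its targets mainly through its seed, the bases 2 to 8 from its 5′ end. The 5p and the 3p arm of a hairpin are its 2 strands, and in most miRNAs one of them is kept more than the other.

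The mature sequences are shown because miR-10a-5p and miR-10b-5p differ in 1 base, as do miR-196a-5p and miR-196b-5p. The relatives miR-100-5p and let-7a-5p share only a run of bases with a member, at an offset. All sequences come from RefSeq (GRCm38.p6), are written 5′ to 3′ and have the seed in capitals.
miR-10a-5p: uACCCUGUagauccgaauuugug
miR-10b-5p: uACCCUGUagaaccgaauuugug
miR-100-5p: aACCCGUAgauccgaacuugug
miR-196a-5p: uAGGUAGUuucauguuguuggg
miR-196b-5p: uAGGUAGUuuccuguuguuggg
let-7a-5p: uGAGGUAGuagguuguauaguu
miR-196a-1-3p: cAACGACAucaaaccaccugau

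The 2 miR-10 miRNAs share the seed ACCCUGU and differ in 1 base, U12A, counted from the 5′ end with the base of miR-10a-5p first. No further row among the 463 with a RefSeq mature sequence has this seed. The relative miR-100-5p shares a run of 11 bases with miR-10a-5p, at positions 7 to 17 of miR-10a-5p and 6 to 16 of miR-100-5p, so that the sequences are offset by 1 base and the seeds differ. The miRNA miR-196a-5p differs from miR-196b-5p in 1 base, A12C, with the base of miR-196a-5p first. Its seed AGGUAGU stands at positions 3 to 9 of 8 of the 9 let-7 and miR-98 rows, again offset by 1 base, while let-7e-5p shares 6 of these bases. Reads of miRNAs that differ in 1 base can be assigned to the wrong one of them by an aligner that allows mismatches, so that the split between miR-10a-5p and miR-10b-5p, and between miR-196a-5p and miR-196b-5p, is uncertain.

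Coordinates are those of GRCm38, the mm10 build that the authors used. The gene of miR-10a lies on the plus strand at chr11:96317165-96317274, 993 bp before Hoxb4 and outside any other annotated gene. The gene Mir196a-1 lies 51900 bp away in the same cluster, at chr11:96265164-96265265 on the plus strand, 6192 bp before Hoxb9 and likewise outside other genes. The gene of miR-10b lies at chr2:74726070-74726137 on the plus strand, within introns of Hoxd3 and of Hoxd4. The second copy of miR-196a, Mir196a-2, lies at chr15:102973350-102973434 on the plus strand, in an intron of the Hoxc5 gene model. The row miR-196a-5p names no copy and can hold reads of both, whereas miR-196a-1-3p is the 3p arm of the Hoxb copy alone. The gene of miR-196b overlaps an exon of Hoxa9 on the minus strand, at chr6:52230081-52230165.

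The Hox-cluster miRNAs were of moderate abundance in the mES cells. In Trim71fl/fl cells miR-196a-1-3p had a mean of 507 ± 377 (SD, n = 5) normalized reads and ranked 180 of 592 miRNAs. The miRNA miR-10a-5p followed with 198 ± 145 at rank 267, miR-196a-5p with 171 ± 48.5 at rank 278, and miR-10b-5p with 144 ± 88.4 at rank 291, where the median miRNA of the table had 137. The miRNAs directly above and below each of them in this order are given for scale, and their means are close because they were picked by rank. These neighbours were miR-1191 (199 ± 28.2) and miR-323-3p (188 ± 36.9) for miR-10a-5p, and miR-125b-5p (145 ± 71.0) and miR-466b-5p (144 ± 23.8) for miR-10b-5p. For miR-196a-1-3p they were miR-129b-3p (507 ± 218) and miR-17-3p (501 ± 163), and for miR-196a-5p they were miR-669f-5p (171 ± 41.6) and miR-148b-5p (170 ± 50.3). Without day 5 the Trim71fl/fl mean was 179 for miR-10b-5p and 161 for miR-196a-5p, so that the order of these 2 turned. The 4 miRNAs together held 0.0078% to 0.0400% of all values in the Trim71fl/fl libraries and 0.0237% to 0.0497% in the Trim71-/- libraries. The mature miRNAs are 22 to 23 bases long, so that levels were compared without scaling to length.

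In Trim71-/- cells all 4 means were higher, and no difference passed the test with the day as a factor. The mean was 805 ± 489 (SD, n = 5) for miR-196a-1-3p, 387 ± 149 for miR-10a-5p, 254 ± 48.5 for miR-196a-5p and 228 ± 100.2 for miR-10b-5p, with ratios to Trim71fl/fl of 1.59, 1.96, 1.48 and 1.59. The study called a miRNA changed at a fold change above 1.5 with p under 0.05 before adjustment, in an analysis of variance. In the paired fit used here these thresholds were met upward by 5 of 592 miRNAs (0.845%) and downward by 27 (4.56%), none of them a Hox-cluster miRNA. Without the day in the fit 42 met them upward, among them miR-196a-5p, and 59 downward, but that fit counts the mirrored libraries of a day as separate values. No miRNA (0%) had an adjusted p under 0.05 in limma, a linear model fitted to all 592 miRNAs with the day as a factor, while 32 had an unadjusted p under 0.05. The fold change alone, whatever its p, was over 1.5 upward in all 4 Hox-cluster miRNAs on the log2(value + 1) scale and in 109 of the 592 (18.4%). Without the pair of day 5 it was over 1.5 upward in 1 of the 4, miR-196a-5p, and in 70 of the 592.

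**Figure D1:**
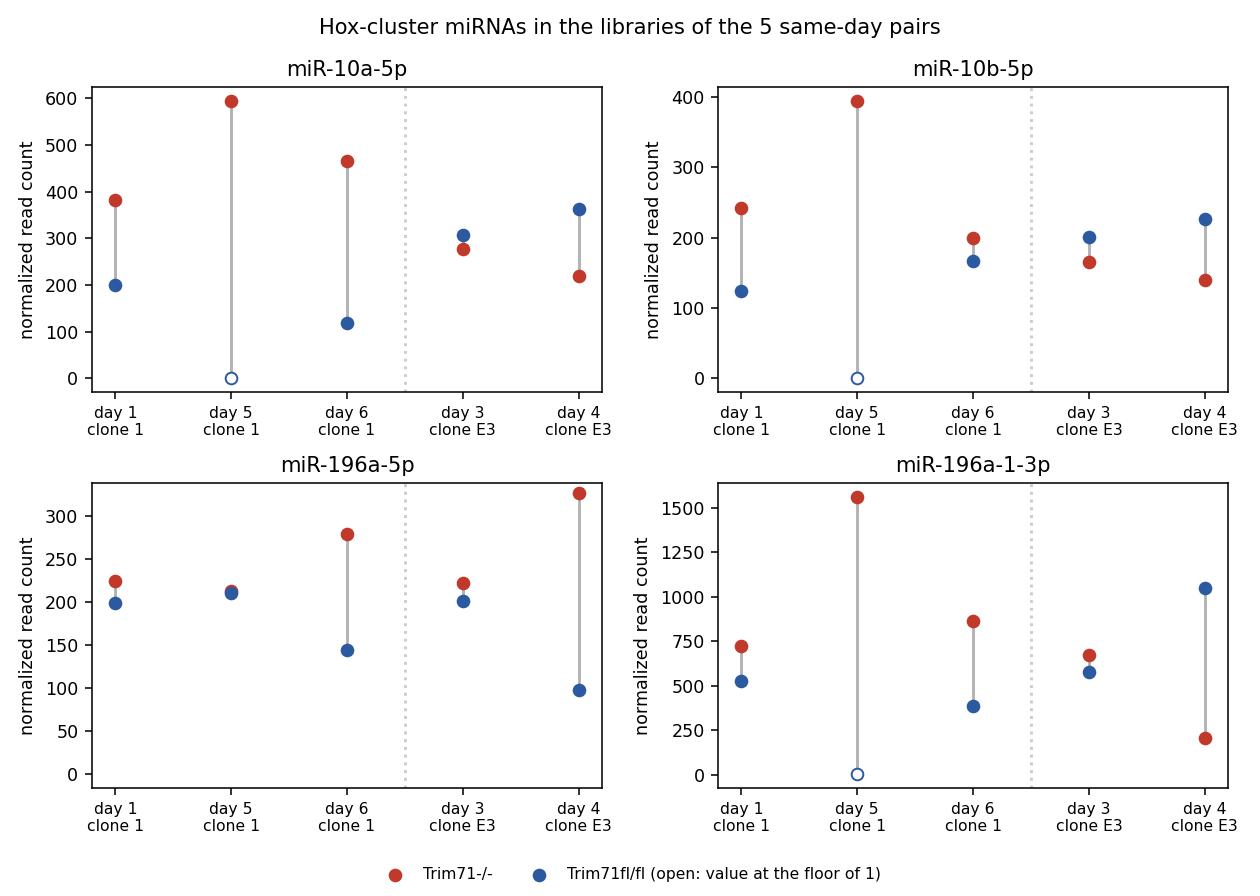
Normalized read count of each Hox-cluster miRNA (vertical axis, linear) on the 5 days of the paired libraries (horizontal axis, clone 1 left and clone E3 right of the dotted line), with 1 point per library and grey lines joining a day's pair. On day 5 the Trim71fl/fl value of 3 of the 4 miRNAs is at the floor of 1, and miR-196a-5p is the miRNA whose Trim71-/- value is the higher one on all 5 days.

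The miRNA miR-10a-5p, from the Hoxb cluster, had values of 382, 276, 219, 594 and 465 in the Trim71-/- libraries of days 1, 3, 4, 5 and 6. The Trim71fl/fl libraries of these days had 200.5, 306, 363, 1 and 118. Trim71-/- was thus higher on the 3 days of clone 1 and lower on both days of clone E3, and the ranges of the genotypes overlapped. The log2 fold change was 2.05 (SE 1.33, limma, p = 0.173, adjusted p = 0.645), and the exact permutation test, which swaps the genotypes of a day, gave a two-sided p = 0.25, where 5 pairs cannot give less than 0.063. This value rests on day 5. The same-day log2 differences were 0.93, -0.15, -0.72, 8.22 and 1.97, and without day 5 the log2 fold change was 0.51.

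The miRNA miR-10b-5p, its near-identical family member from the Hoxd cluster, had 242, 165, 140.2, 394 and 199.9 in Trim71-/- and 124, 201, 226, 1 and 166 in Trim71fl/fl on the same days. The days took the same sides as for miR-10a-5p, with Trim71-/- higher in clone 1 and lower in clone E3. The log2 fold change was 1.58 (SE 1.27, limma, p = 0.260, adjusted p = 0.645, exact permutation p = 0.5). The same-day log2 differences were 0.95, -0.28, -0.69, 7.63 and 0.26, and without day 5 the log2 fold change was 0.06.

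The 3p arm of the Hoxb copy of miR-196a, miR-196a-1-3p, had 724, 674, 203, 1558 and 866 in Trim71-/- and 526, 576, 1047, 1 and 384 in Trim71fl/fl. Trim71-/- was higher on 4 days and lower on day 4. The log2 fold change was 1.82 (SE 1.67, limma, p = 0.317, adjusted p = 0.677, exact permutation p = 0.5625). The same-day log2 differences of 0.46, 0.23, -2.36, 9.61 and 1.17 spanned the widest range of the 4 miRNAs. Without day 5 the log2 fold change was -0.13, so that the direction turned.

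The 5p arm, miR-196a-5p, had 225, 223, 327, 213 and 279.7 in Trim71-/- and 199, 202, 97.6, 211 and 145 in Trim71fl/fl. Trim71-/- was higher on all 5 days and the lowest Trim71-/- value lay above the highest Trim71fl/fl value, with 213 against 211 on day 5. As the same-day sum is constant, a higher value on every day and groups that do not overlap are the same observation here. A higher value on all 5 days was found in 31 of 592 miRNAs (5.24%). The log2 fold change of 0.60 (SE 0.34) did not pass the threshold in the paired fit (limma, p = 0.130, adjusted p = 0.622), and the exact permutation gave p = 0.063, the smallest that 5 pairs allow. In the fit with no replicate block, that is without the day, the same 0.60 had an unadjusted p under 0.05 (limma, adjusted p = 0.180). It thus met the study's thresholds there, but this fit counts the mirrored libraries of a day as separate values. After division of each library by its sum, which moved the median over the table from 0.03 to -0.24, the log2 fold change of miR-196a-5p was 0.33 (limma, adjusted p = 0.778) and it was higher on 3 of 5 days. The largest same-day log2 differences were 1.73 on day 4 and 0.94 on day 6, against 0.17, 0.14 and 0.02 on days 1, 3 and 5, and without day 4 the log2 fold change was 0.32.

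**Figure D2:**
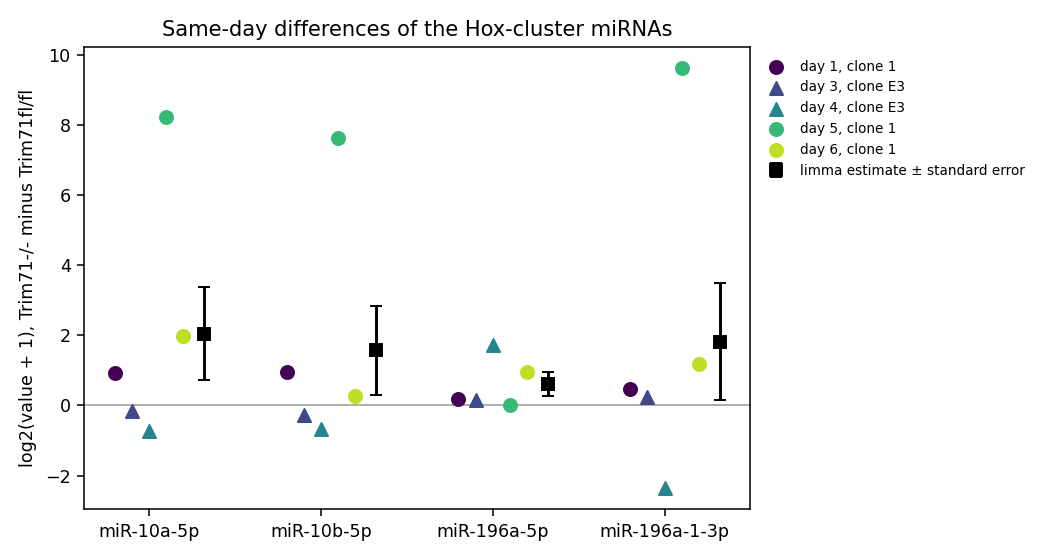
Difference of log2(value + 1), Trim71-/- minus Trim71fl/fl, on each day (vertical axis) for the 4 Hox-cluster miRNAs, with circles for clone 1, triangles for clone E3 and black squares for the limma estimate with its standard error. The day 5 points of miR-10a-5p, miR-10b-5p and miR-196a-1-3p stand at 8.22, 7.63 and 9.61, and that of miR-196a-5p at 0.02.

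**Figure D3:**
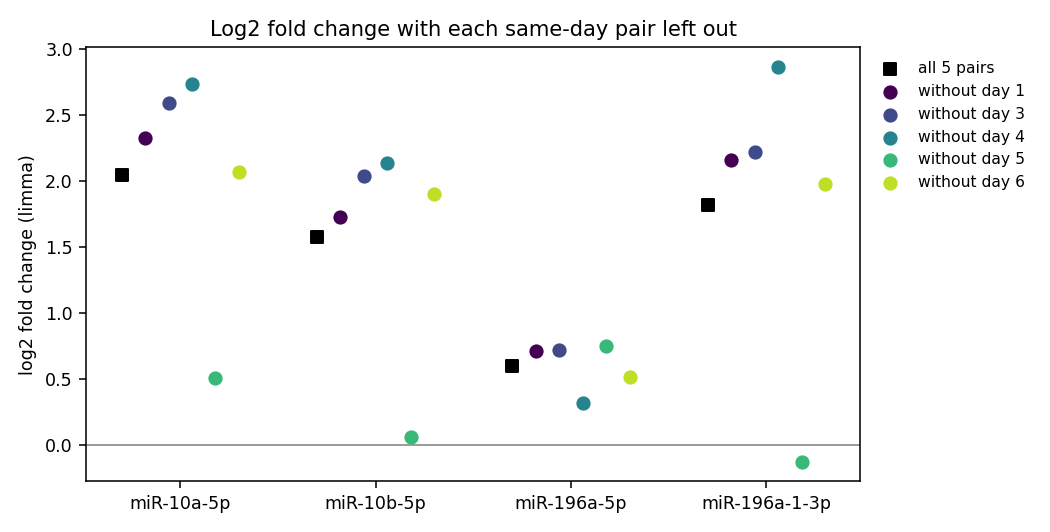
Log2 fold change from limma (vertical axis) for all 5 pairs (squares) and with 1 pair left out in turn (circles). Leaving out day 5 moves miR-10a-5p to 0.51, miR-10b-5p to 0.06 and miR-196a-1-3p to -0.13, while miR-196a-5p stays between 0.32 and 0.75.

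The size of the day 5 differences depends on the floor. In the Trim71fl/fl library of day 5, 21 of 592 miRNAs (3.55%) were at the floor, among them 3 of the 4 Hox-cluster miRNAs, and these are the only 3 of the 40 paired values of the Hox-cluster miRNAs that were. The value before the floor, which is the constant sum less the value of the partner, was -11.4 for miR-10a-5p, -27.6 for miR-10b-5p and -308 for miR-196a-1-3p. No read count can be negative, so that a log2 difference of 8 or 9 on this day is no measured fold change. On the untransformed scale before the floor the mean same-day difference was 192 normalized reads for miR-10a-5p, 90.3 for miR-10b-5p, 360.2 for miR-196a-1-3p and 82.7 for miR-196a-5p. These means include the negative values of day 5. Without that day the means of Trim71-/- and Trim71fl/fl were 336 and 247 for miR-10a-5p, 187 and 179 for miR-10b-5p, 617 and 633 for miR-196a-1-3p, which turned, and 264 and 161 for miR-196a-5p.

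**Figure D4:**
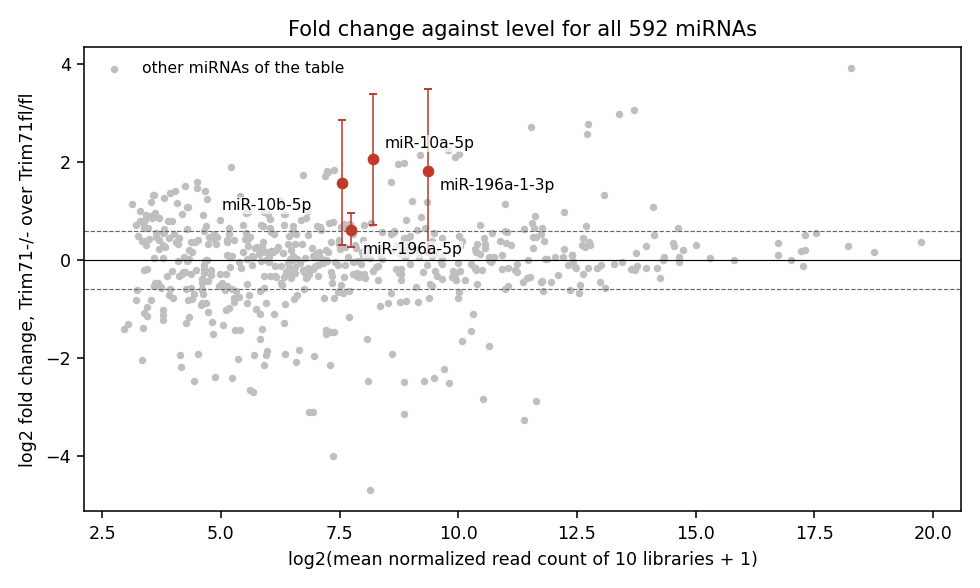
Log2 fold change of Trim71-/- over Trim71fl/fl (vertical axis) against the mean level (horizontal axis, log2 scale) for all 592 miRNAs, with the Hox-cluster miRNAs in red with their standard errors and dashed lines at a fold change of 1.5. The Hox-cluster miRNAs lie above the upper line, between 0.60 and 2.05, with standard errors of 0.34 to 1.67.

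The clones were compared because the study used 2 of them for each genotype. In clone 1 the log2 fold change was 3.70 for miR-10a-5p, 2.95 for miR-10b-5p, 3.75 for miR-196a-1-3p and 0.38 for miR-196a-5p. In clone E3 it was -0.44, -0.48, -1.07 and 0.94. The difference of clone E3 from clone 1 was -4.14 (SE 2.28, limma interaction, adjusted p = 0.627) for miR-10a-5p, -3.43 (SE 2.34, adjusted p = 0.652) for miR-10b-5p, -4.81 (SE 2.99, adjusted p = 0.648) for miR-196a-1-3p and 0.56 (SE 0.73, adjusted p = 0.743) for miR-196a-5p. None passed the threshold. Both miR-10 miRNAs were higher on the 3 days of clone 1 and lower on the 2 days of clone E3, a pattern found in 24 of 592 miRNAs (4.05%), and as many miRNAs showed the opposite one. Clone 1 includes day 5, and without it the difference of clone E3 from clone 1 was -1.88 for miR-10a-5p (SE 0.70), -1.09 for miR-10b-5p (SE 0.64), -1.88 for miR-196a-1-3p (SE 1.08) and 0.38 for miR-196a-5p (SE 0.83), with adjusted p-values (limma) of 0.775 to 0.915. Clone and day cannot be told apart.

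Members of a family were then compared within libraries. The value of miR-10a-5p was between 1.5 and 1.7 times that of miR-10b-5p in 7 of the 10 libraries, of both genotypes. The exceptions were the pair of day 6, with a ratio of 2.32 in Trim71-/- and 0.71 in Trim71fl/fl, and the Trim71fl/fl library of day 5, where both were at the floor. Both libraries of a day mirror each other around fixed sums, 583 for miR-10a-5p and 366 for miR-10b-5p. A ratio that recurs over libraries is therefore partly set by these sums and is no separate evidence of a stable ratio. The change between genotypes differed between the 2 miRNAs by 0.47 ± 0.73 on the log2 scale (SD, n = 5, exact permutation p = 0.25, adjusted over 6 comparisons 0.5), and by 0.16 without day 6. Their level in Trim71fl/fl differed by 0.30 ± 0.53 (exact permutation p = 0.25, adjusted 0.5), miR-10a-5p being higher on 3 days and lower on 1. As the same-day sum is the same on every day, the levels of the days are not separate measurements. The exact p of a level, here and below, therefore does not measure how far the level varies.

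For the arms of miR-196a, the log2 change of the 5p arm less that of the 3p arm was -0.29, -0.08 and -0.23 on days 1, 3 and 6. It was 4.10 on day 4 and -9.59 on day 5, the latter with the floor in it. The value of miR-196a-5p was between 0.3 and 0.4 times that of miR-196a-1-3p in 6 of the 10 libraries, both libraries of days 1, 3 and 6. On day 4 the ratio was 1.61 in Trim71-/- and 0.0932 in Trim71fl/fl, and on day 5 it was 0.137 in Trim71-/- with the 3p arm at the floor in Trim71fl/fl. Here too the same-day sums are fixed, at 425 for miR-196a-5p and 1250 for miR-196a-1-3p. The 6 libraries are thus no separate evidence of a stable ratio. The change of the 5p arm less that of the 3p arm was -1.22 ± 5.04 (SD, n = 5, exact permutation p = 0.5625, adjusted 0.675), and 0.87 without day 5. In Trim71fl/fl the 3p arm was the higher one on 4 of 5 days. The log2 level of the 5p arm less that of the 3p arm was -0.20 ± 3.96 (exact permutation p = 1), and -1.93 without day 5, with p = 0.125 as the smallest exact p that 4 pairs allow. Part of the reads of the 5p row can come from the Hoxc copy, whose share was not measured.

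The mean log2 level of the miR-10 miRNAs was below that of the miR-196 miRNAs in Trim71fl/fl on all 5 days. The level of miR-10 less that of miR-196 was -1.15 ± 1.28 (SD, n = 5, exact permutation p = 0.063, adjusted 0.375), and -0.60 without day 5. With the same-day sums fixed, the 5 days are not separate measurements of this level, and the p does not measure its spread. The change between genotypes differed by 0.60 ± 1.46 between the families (exact permutation p = 0.5625, adjusted 0.675), and by -0.03 without day 5.

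The 5p arms of miR-99, miR-100 and miR-125 are relatives of miR-10 that lie outside the Hox clusters. All 5 had a higher mean in Trim71-/-, none passed the thresholds, and their median log2 fold change was 1.22, against 0.03 over all 592 miRNAs, of which 303 were higher. Without day 5 it was 0.61. The most abundant, miR-99b-5p, had 10557 ± 4228 in Trim71-/- and 6748 ± 4228 in Trim71fl/fl (SD, n = 5, log2 fold change 1.32), with 17085 and 219.6 on day 5. Next came miR-125a-5p with 2124 ± 371 and 1639 ± 371 (0.38), then miR-125b-5p with 223 ± 71.0 and 145 ± 71.0 (0.67), miR-100-5p with 188 ± 81.0 and 100.3 ± 67.7 (1.72) and miR-99a-5p with 99.1 ± 28.6 and 50.3 ± 28.6 (1.22). Without day 5 the log2 fold change was 0.08 for miR-99b-5p, 0.61 for miR-125a-5p, 1.13 for miR-125b-5p, 0.32 for miR-100-5p and 1.29 for miR-99a-5p. Like the miR-10 miRNAs, miR-100-5p was at the floor in the Trim71fl/fl library of day 5. Its Trim71-/- values were 191, 177, 90.9, 316 and 168, so that it was higher on 4 days and lower on day 4.

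The let-7 family, which shares 7 bases with miR-196a-5p at an offset, is best known for its low level in pluripotent cells. All 9 rows of let-7 and miR-98 5p arms had a higher mean in Trim71-/-. In the paired fit let-7e-5p alone passed the study's thresholds, with 891 ± 129 against 409 ± 129 normalized reads (SD, n = 5, log2 fold change 1.18, SE 0.34, limma, adjusted p = 0.607). The list had a median log2 fold change of 2.24. The 2 with the highest mean were let-7g-5p, with 17688 against 8780, and let-7f-5p, with 14180 against 7133. Here the day that stood apart was day 6, where 7 of the 9 rows were at the floor in Trim71fl/fl, against 24 of all 592 miRNAs. The median of the list without that day was 0.31. No Hox-cluster miRNA was at the floor on day 6.

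**Figure D5:**
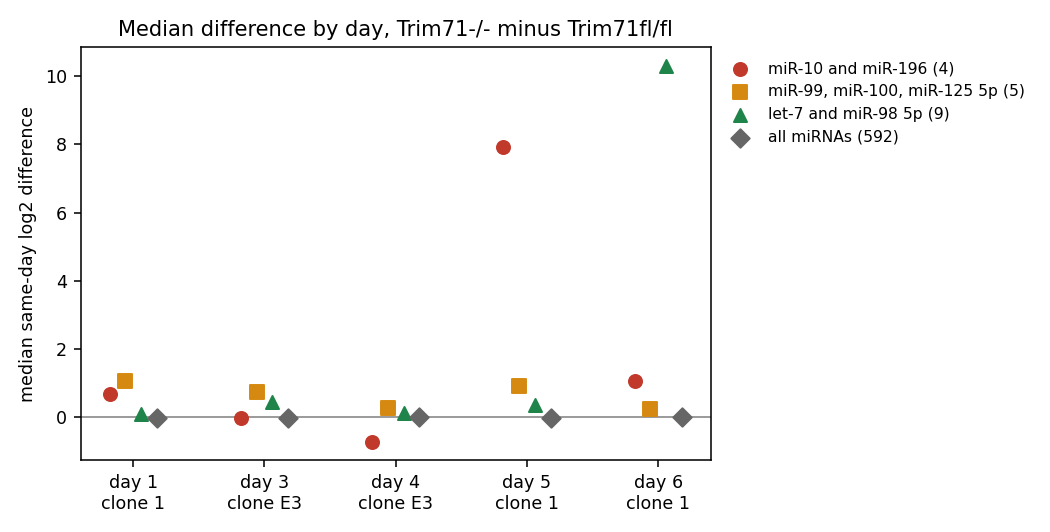
Median same-day log2 difference, Trim71-/- minus Trim71fl/fl (vertical axis), of the Hox-cluster miRNAs, the miR-10 relatives, the let-7 and miR-98 5p arms and all miRNAs on each day, with the number of rows in parentheses. The Hox-cluster median is 7.92 on day 5 and the let-7 median 10.29 on day 6, while the median of all miRNAs stays between -0.02 and 0.02.

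The miRNAs whose pattern was nearest to each member were found by the root mean square distance of the 5 same-day log2 differences, over the 591 other miRNAs, as a description. Of miRNAs outside the Hox-cluster rows, the nearest to miR-10a-5p were miR-3074-2-3p (0.68), miR-455-5p (0.74) and miR-100-5p (0.87), and miR-10b-5p itself (0.81) ranked 3 of 591. Nearest to miR-10b-5p were the same miRNAs in the order miR-100-5p (0.53), miR-3074-2-3p (0.57) and miR-455-5p (0.60). Nearest to miR-196a-1-3p were miR-455-5p (0.71), miR-184-3p (0.72) and miR-871-3p (0.77). All 5 of these miRNAs were at the floor in the Trim71fl/fl library of day 5, with differences from 7.26 to 10.2 on that day. Its neighbour in the Hoxb cluster, miR-10a-5p, was at a distance of 1.06 from miR-196a-1-3p and ranked 6 of 591, whereas the other arm, miR-196a-5p, was at 4.67 and ranked 337. Nearest to miR-196a-5p were miR-883a-3p (0.25), miR-26a-2-3p (0.36) and miR-378a-5p (0.39), whose differences on day 4 were 1.84, 1.24 and 1.16.

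Markers of the labelled cell type and of others were set beside these results. The miRNAs of the miR-290 to miR-295 and the miR-302 to miR-367 clusters, which define pluripotent mouse cells, summed to between 2201627 and 3081141 in Trim71-/- and between 1639121 and 2514204 in Trim71fl/fl. By the sign of the log2 fold change, as in the lists that follow, 13 of their 27 rows were higher and 14 lower in Trim71-/-. Their median log2 fold change was -0.0048, but the rows of the 2 clusters did not take the same sides. All 13 higher rows belonged to the miR-290 to miR-295 cluster, whose rows ran from -0.64 to 0.66. Every row of the miR-302 to miR-367 cluster was lower, from -0.28 to -1.85. None passed the thresholds, and without day 5 a single row of that cluster turned, to 0.07. The most abundant were miR-292-5p (985752 ± 298990 against 783389 ± 297119, SD, n = 5) and miR-291a-3p (467996 ± 63060 against 416445 ± 63060), both of the miR-290 to miR-295 cluster. For the 10 fibroblast rows 8 were higher and the sums ran from 276339 to 831948 in Trim71-/- and from 13460 to 364629 in Trim71fl/fl, with both extremes on day 5. They were led by miR-21a-5p (414400 ± 216256 against 218368 ± 126816), which had 796335 in Trim71-/- and the floor in Trim71fl/fl on day 5, and by miR-143-3p (26198 ± 8316 against 21522 ± 8316). Without miR-21a-5p the fibroblast sums ran from 13693 to 35613 and from 13459 to 35399. For the 8 neural rows 7 were higher, with sums from 5927 to 9249 and from 3393 to 6715, led by miR-9-5p (3707 ± 843 against 2316 ± 843) and miR-128-3p (3257 ± 665 against 2119.6 ± 665). For the 5 endoderm rows all had a log2 fold change above 0, and 3 without day 5, with sums from 1881 to 3330 and from 909.8 to 2356, led by miR-192-5p (1905 ± 624 against 1425 ± 624) and miR-194-5p (329 ± 128 against 341 ± 128), whose log2 fold change was 0.014, whose mean was the lower one in Trim71-/- and which was higher there on 1 of 5 days. In each of these lists day 5 held the highest Trim71-/- and the lowest Trim71fl/fl sum. As same-day sums are constant, these are a single observation, and the most abundant rows weigh most in it. On day 5 miR-292-5p had 1400000 in Trim71-/- and 371018 in Trim71fl/fl. The median same-day log2 difference of day 5 was -0.46 for the pluripotency rows and 0.04 for the fibroblast rows. It was 0.81 for the neural rows and 1.36 for the endoderm rows. The values of miR-10a-5p, miR-10b-5p and miR-196a-1-3p also had both extremes on day 5. No marker row is at 0, since the floor is 1. Fewer cells with a miRNA and less of it per cell cannot be told apart in these bulk libraries, and the part of other cell types in the result was not tested.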

How the data were processed

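The data are small RNA libraries of 5 Trim71-/- and 6 Trim71fl/fl mES cell samples. According to the paper and the submitters' processing notes, libraries were made with a NEBNext small RNA kit (the labels name another kit), sequenced as 50 bp reads, demultiplexed with CASAVA 1.8, trimmed with FLICKR, aligned to mm10 and miRBase with Bowtie2 2.2.1 and counted in Partek 6.6. The authors applied DESeq2 normalization and a batch correction, raised values below 1 to this floor and dropped weakly expressed miRNAs. The deposited values are therefore a normalized signal and not read counts. As the depth is unknown, errors are those between the 5 pairs. All columns of values were matched to a sample.

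The 10 paired libraries were fitted in R 4.3.3 with limma 3.58.1 (without an intensity trend), for all 592 miRNAs together. The model held genotype and day, the response was log2(value + 1), and p-values were adjusted after Benjamini and Hochberg. The pairing comes from the labels' day. Within a day the libraries mirror each other, as the sums are constant, so that their deviations are opposite by construction. A count test planned in case of raw counts was not used. Single values were tested by exact two-sided permutation over the 5 days (32 sign patterns), which swaps the genotypes of a day or, for levels in Trim71fl/fl, flips the sign of the difference between the miRNAs. For levels the days are not separate measurements, as the same-day sums are constant, so that this p is a description.

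Named miRNAs are the members, their relatives, the 3 nearest in pattern, the neighbours in level and the 2 highest of the let-7 and each marker list, and let-7e-5p, which was named after its value was seen. Of the marker lists, miR-214 and miR-137 were not analysed here. Sequences were matched by name to RefSeq (463 of 592 rows), and gene positions were checked against the annotation of the same build. The members and lists were chosen with earlier results of these data known.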

Additional observations from a re-analysis of the deposited data

Results flagged for a closer look

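The same-day log2 difference of miR-10b-5p on day 5, 7.63, stood apart from the other 4 days (-0.69 to 0.95) by a gap over 0.71 of the whole range, Dixon's critical value for 5 values. The test was made on 12 groups of values, the Trim71-/- values, the Trim71fl/fl values and the same-day differences of each Hox-cluster miRNA. Chance marks about 1 in 20 of separate groups. The groups of a miRNA mirror each other, as the same-day sum is constant, so that these were not 12 separate tests. The Trim71fl/fl value of that day was at the floor.

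The log2 fold change of clone E3 less that of clone 1 was -4.14 for miR-10a-5p and -3.43 for miR-10b-5p. Each was taken up because all pairs of clone 1 lay above 0 and all pairs of clone E3 below. The values of clone 1 include day 5, where Trim71fl/fl was at the floor, and without that day the differences were -1.88 and -1.09. The interaction test with all days did not pass the threshold (limma, adjusted p = 0.627 and adjusted p = 0.652).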

How the results depend on the processing

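Each Hox-cluster miRNA was refitted under 19 alternatives. For miR-10a-5p and miR-10b-5p 18 kept the direction and stayed short of the threshold, for miR-196a-1-3p 17 did, and for miR-196a-5p 16. Among these alternatives the adjusted p (limma) ran from 0.305 to 0.990 for miR-10a-5p, 0.380 to 0.990 for miR-10b-5p, 0.418 to 0.990 for miR-196a-1-3p and 0.115 to 0.990 for miR-196a-5p. Clone E3 alone turned miR-10a-5p to -0.44, miR-10b-5p to -0.48 and miR-196a-1-3p to -1.07. With each pair left out in turn miR-196a-1-3p ran from -0.13 to 2.87, the lowest without day 5. An unadjusted p under 0.05 was reached by miR-196a-5p with no replicate block (0.60, adjusted p = 0.180), with clone in place of day (0.60, adjusted p = 0.231) and with all 11 libraries and no replicate block (0.59, adjusted p = 0.115). These 3 fits count the mirrored libraries of a day as separate values, and the last also counts the day 2 library, which is a mean of the others, so that their p-values are too small. The day as a replicate block changed no other call of a Hox-cluster miRNA.

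The change of miR-196a-5p less that of miR-196a-1-3p ran from -2.55 to 0.87 with each pair left out, and that of miR-10 less miR-196 from -0.027 to 0.85. The sign turned without day 5 in both. That of miR-10a-5p less miR-10b-5p ran from 0.16 without day 6 to 0.60. In a check added after the data were seen, leaving out day 5 moved the median of the Hox-cluster miRNAs from 1.7 to 0.28, of the miR-10 relatives from 1.22 to 0.61 (all arms 1.27 to 0.49), of the endoderm list from 0.54 to 0.19 and of the pluripotency list from -0.0048 to 0.11.

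Over all miRNAs, 5 passed the thresholds upward and 27 downward. With no replicate block 42 and 59 did, with clone in place of day 36 and 57, and with all 11 libraries 45 and 71, in the same 3 fits that count mirrored libraries separately. Leaving out each pair gave 4 to 23 upward and 11 to 44 downward. Clone 1 alone gave 14 and 45, and division by library sums 2 and 47. Upward, clone E3 alone gave 8, upper quartile scaling 9, a pseudocount of 10 gave 8, and untransformed values, with or without the floor, 9. Downward, a mean of at least 100 left 10, as fewer miRNAs were tested. The cause of the other shifts was not tested. The count test planned for raw counts was not run, because the values are normalized. With a pseudocount of 10 the nearest miRNAs of miR-196a-5p were the same, and miR-27a-5p came first for miR-10b-5p (0.36). For miR-10a-5p, miR-27a-5p (0.81) took the place of miR-100-5p, and for miR-196a-1-3p, miR-99b-5p (0.76) that of miR-871-3p. Neither miR-27a-5p nor miR-99b-5p was at the floor in the Trim71fl/fl library of day 5.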

Other observations

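Among the 21 miRNAs at the floor in the Trim71fl/fl library of day 5 were 3 Hox-cluster miRNAs and 3 arms of their relatives miR-99, miR-100 and miR-125, which are miR-100-5p, miR-99b-3p and miR-125b-1-3p. Of these, miR-99b-3p had 1974 in Trim71-/- on that day and miR-125b-1-3p had 36.4. Of the other 5 relatives, miR-99b-5p (17085 against 219.6), miR-125a-3p (70.5 against 16.2) and miR-99a-5p (97.8 against 51.7) were higher in Trim71-/- on day 5 without being at the floor, and miR-125a-5p (1528 against 2235) and miR-125b-5p (112 against 256) were lower. These are values only, and their cause was not tested.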
